A study of Arabidopsis thaliana with 8 samples.

Results

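BHLH101 (locus AT5G04150) is measured by 1 of the 22746 probe sets tested in this series, the only one that the platform table pairs with BHLH101 alone. It was chosen by the identifier of that probe set, not by a threshold on its signal, and is described here in all 8 arrays. Roots of Arabidopsis thaliana were compared in 4 groups of 2 biological replicates: fit plants under iron deficiency, fit plants with sufficient iron, WT plants under iron deficiency and WT plants with sufficient iron. All plants spent 14 days on Gamborg's B5 medium and then 3 days on agar medium. Iron-sufficient medium held 50 µM Fe(III)-EDTA, while iron-deficient medium held no added Fe(III)-EDTA and 300 µM of ferrozine, a chelator of ferrous iron, so removal of iron and presence of the chelator cannot be told apart. The fit plants are mutated in FIT, a basic helix-loop-helix (bHLH) transcription factor of the root epidermis; the sources used here do not give the allele, the accession of the WT plants or the number of plants per sample.

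BHLH101 encodes a bHLH transcription factor of subgroup Ib, together with BHLH38, BHLH39 and BHLH100. In Arabidopsis roots these factors pair with FIT, and the pairs activate genes of iron uptake such as the transporter gene IRT1 and the ferric reductase gene FRO2. Their own genes are switched on under iron deficiency by bHLH factors of subgroup IVc with bHLH121 (URI). That step is held in check by the ubiquitin ligase BTS, and IRON MAN peptides relieve it. No probe set named FIT, BHLH38, BHLH39 or BHLH100 alone. A gene is called measured here only where a probe set names it alone. In that sense BHLH101 was the only measured member of its subgroup, and the mutation was not checked from the signal of FIT. Genes not measured may still have signal among the 8730 probe sets without a name here or the 503 that name several genes.

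Array medians of log2 signal ranged from 6.81 to 6.88. The array carries several control probe sets at the 3′ and the 5′ end of actin, GAPDH and ubiquitin transcripts, and the ratio of 3′ over 5′ signal, averaged over 1 pair of probe sets for each, was 7.20 on replicate 2 of iron-deficient fit and 4.88 on replicate 2 of iron-deficient WT, against 2.35 to 3.35 on the other 6 arrays. Of the root markers listed, 2 of 12 were measured: EXPA7 and EXPA18, root hair expansins, had group means of 7.52 to 8.99 log2 signal. Of the shoot markers, 3 of 6 were measured (RCA, LHCB4.1 and PORB), with group means of 6.21 to 8.20. Signal was not told apart from background, so these values neither show nor exclude shoot RNA. None of these 5 genes was called by limma in any of the 7 comparisons described below, although both expansins had an unadjusted p under 0.05 in the 4 that involve iron-deficient fit. RCA had one in 4 as well, among them the iron responses of fit (-0.67, limma unadjusted p = 0.00458) and WT (-0.63, limma unadjusted p = 0.00651), and the part of these shifts in the BHLH101 values was not tested.

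The deposited signal of BHLH101 spanned 45.5-fold over the 8 arrays. In iron-deficient fit roots it was 3081 in replicate 1 and 2922 in replicate 2. In iron-sufficient fit roots it was 527.2 and 603.4. In iron-deficient WT roots it was 1002 and 1463, and in iron-sufficient WT roots 67.7 and 74.3. No 2 groups overlapped: both arrays of each group lay above both arrays of the next lower group. The order, from high to low, was iron-deficient fit, iron-deficient WT, iron-sufficient fit and iron-sufficient WT.

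On the log2 scale the group means were 11.55 ± 0.05 in iron-deficient fit, 9.14 ± 0.14 in iron-sufficient fit, 10.24 ± 0.39 in iron-deficient WT and 6.15 ± 0.09 in iron-sufficient WT (SD, n = 2 each). The replicates of iron-deficient WT were the farthest apart, by 1.46-fold, and those of iron-deficient fit the closest, by 1.05-fold. The array of iron-deficient WT with the raised 3′ to 5′ ratio was the brighter of its pair. The corresponding array of iron-deficient fit was the dimmer of its pair, by 0.08 on the log2 scale. The residual SD of BHLH101 over the 4 groups was 0.21, against a median of 0.24 over all probe sets, and 42.0% of probe sets had a smaller one.

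**Figure D1:**
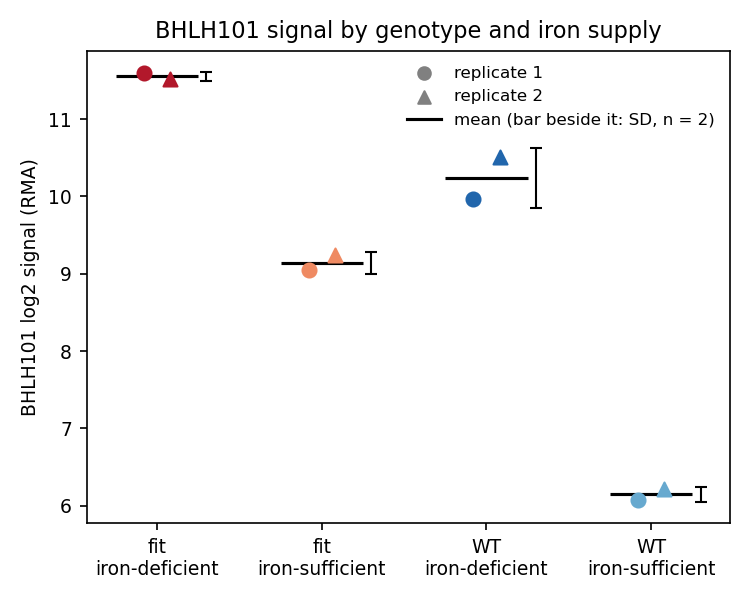
BHLH101 log2 signal after RMA (vertical axis) on each of the 8 arrays, by genotype and iron supply; points are arrays, horizontal lines are means of 2 arrays and the bars beside them are SDs. Iron-sufficient fit, at 9.14, sits closer to iron-deficient WT, at 10.24, than to iron-sufficient WT, at 6.15.

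Iron deficiency was accompanied by more BHLH101 signal in both genotypes. In WT roots BHLH101 was 17.1-fold higher under iron deficiency than with sufficient iron (log2 fold change 4.09, SE 0.22, 95% interval 3.58 to 4.60, limma adjusted p = 0.000192). In fit roots it was 5.32-fold higher (2.41, SE 0.22, 95% interval 1.90 to 2.92, limma adjusted p = 0.00901). Of all probe sets, 0.431% were called in WT and 0.202% in fit. Among the log2 fold changes of the 22746 probe sets, that of BHLH101 ranked number 13 from the top in WT and number 16 in fit. Because roots were sampled whole, more cells expressing BHLH101 and more BHLH101 RNA per cell cannot be told apart, here and in the comparisons that follow. In fit the call was lost without replicate 1 or 2 of iron-sufficient fit (2.31 and 2.51, adjusted p = 0.176 and 0.141) and when only the 4 fit arrays were fitted (adjusted p = 0.0674).

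With sufficient iron, BHLH101 was already high in the mutant. It was 7.96-fold higher in fit than in WT (2.99, SE 0.22, 95% interval 2.48 to 3.50, limma adjusted p = 0.0115). In this comparison 0.00879% of probe sets were called, which is 2 probe sets. The log2 fold change of BHLH101 ranked number 2 from the top among all 22746 probe sets. It was the largest among the 13513 probe sets that name 1 gene. The level in iron-sufficient fit lay at 73.1% of the log2 distance between iron-sufficient WT and iron-deficient WT. The lowest array of iron-sufficient fit stood 2.83 above the highest array of iron-sufficient WT on the log2 scale. The adjusted p was 0.157 and 0.344 without replicate 1 or 2 of iron-sufficient fit, 0.223 and 0.251 without replicate 1 or 2 of iron-sufficient WT, and 0.132 when 32 was added to each signal before taking log2, which moved the fold change to 2.53. This comparison and the iron response of WT share the iron-sufficient WT arrays.

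Under iron deficiency the mutant also stood above WT, by a smaller log2 fold change but by more on the linear scale, where the mean signals were 3002 in fit and 1233 in WT under iron deficiency and 565.3 in fit and 71.0 in WT with sufficient iron. BHLH101 was at 2.48 times the WT level in fit (log2 fold change 1.31, SE 0.22, 95% interval 0.80 to 1.82), and the comparison did not pass over all probe sets (limma adjusted p = 0.0891, unadjusted p = 0.000373). Both fit arrays were above both WT arrays, with a gap of 1.00 on the log2 scale between the nearest 2. In this comparison 0.273% of probe sets were called. It passed in 2 of the 19 alternative fits, that with the 3′ to 5′ control ratio as a covariate (1.22, adjusted p = 0.0268) and that with the replicate number as a block (1.31, adjusted p = 0.0334), although the labels state no pairing. In iron-deficient fit against iron-deficient WT the expansins EXPA7 and EXPA18 had log2 fold changes of -1.30 and -1.03 (limma adjusted p = 0.365 and 0.553), and the part of cell composition in the BHLH101 values was not tested.

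The remaining pair of neighbours in the order was iron-deficient WT and iron-sufficient fit. BHLH101 was at 2.15 times the level of iron-sufficient fit in iron-deficient WT (log2 fold change 1.102, SE 0.22, 95% interval 0.59 to 1.61). This difference was not called (limma adjusted p = 0.194; 0.255% of probe sets were), and it was called in 0 of the 19 alternative fits (limma unadjusted p = 0.00111 in the fit over all 8 arrays). The lowest array of iron-deficient WT was 0.73 above the highest array of iron-sufficient fit. Of the 3 steps in the order of levels, only that between iron-sufficient fit and iron-sufficient WT passed the test over all probe sets. Between the ends of the order, iron-deficient fit and iron-sufficient WT, BHLH101 differed by 42.3-fold (5.40, SE 0.22, limma adjusted p = 0.000111; 0.4% of probe sets were called).

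Whether the iron response of BHLH101 was smaller in fit depends on the scale. As a fold change the response was 3.21 times smaller in fit than in WT (difference of log2 responses -1.68, SE 0.31, 95% interval -2.40 to -0.96). This did not pass across the 22746 probe sets (limma adjusted p = 0.243, unadjusted p = 0.000689; 0.0747% of probe sets were called). It was called in 1 of 18 alternatives, with the 3′ to 5′ control ratio as a covariate (-1.80, adjusted p = 0.0354). Over the alternatives the difference ran from -1.96 to -1.25, the latter after adding 32 to each signal (limma adjusted p = 0.538). The log2 response in fit was 58.9% of that in WT. On the linear scale the order turned round. Iron-deficient minus iron-sufficient signal was 2436 in fit, with 2318 to 2554 over the 4 pairings of arrays, against 1162 in WT, with 928.1 to 1395 over the 4 pairings. The linear difference was thus 2.10 times as large in fit. The linear comparison was added after the values were seen and carries no test, and array signal is not a count of RNA molecules.

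**Figure D2:**
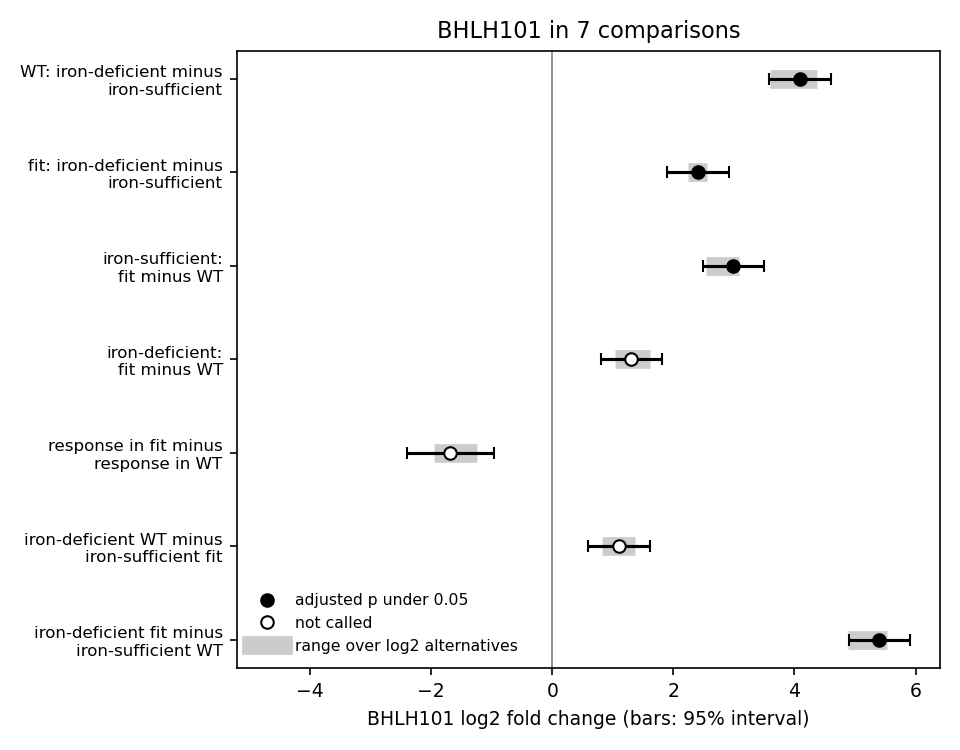
Log2 fold change of BHLH101 (horizontal axis) in 7 comparisons, with 95% intervals from limma; filled points passed an adjusted p of 0.05 over all probe sets, and grey bands span the alternative fits on the log2 scale. The iron response is 4.09 in WT and 2.41 in fit, and fit exceeds WT by 2.99 with sufficient iron and by 1.31 under iron deficiency.

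BHLH101 was then set beside the other regulators of the iron deficiency response. Of 30 listed genes 15 were measured, BHLH101 included, and the list was drawn up with earlier results of these data known. Leaving BHLH101 out, 4 of 14 were called higher under iron deficiency in WT and 2 of 14 in fit, where 0.356% and 0.132% of all probe sets were called higher. The median log2 fold change of the 14 was 0.38 in WT and 0.13 in fit, against -0.01 and 0.03 over all probe sets. None of the 14 was called between fit and WT with sufficient iron, the comparison in which BHLH101 had 2.99. An unadjusted p under 0.05 was found there in 3 of the 14, as in 1.84% of all probe sets. These 3 were also higher in fit. AT1G47400 (IMA1) had 2.08 (limma unadjusted p = 0.000268), AT1G74770 (BTSL1) 1.59 (limma unadjusted p = 0.000539) and PYE 0.43 (limma unadjusted p = 0.0347).

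The factors known to activate subgroup Ib genes had small changes at the RNA level. In WT, the subgroup IVc factors had log2 iron responses of 0.64 (bHLH115), 0.53 (ILR3), 0.25 (bHLH104) and -0.12 (bHLH34), and bHLH121 (URI) had 0.30. In fit they had 0.39, 0.03, 0.07, 0.10 and, for bHLH121, 0.22. With sufficient iron, fit minus WT lay between -0.11 for bHLH34 and 0.36 for bHLH115 and bHLH104. None of these 15 values was called by limma, and the WT responses of bHLH115 and ILR3 had an unadjusted p under 0.05 (0.0182 and 0.0231). The 4 listed subgroup IVa genes (AT2G22750, AT2G22760, NAI1 and AT4G37850) had responses of -0.01 to 0.38 in WT and 0.02 to 0.33 in fit, none of them called by limma or with an unadjusted p under 0.05.

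The bHLH repressor PYE, of subgroup IVb, rose under iron deficiency by similar amounts in both genotypes, 1.39 in fit (SE 0.17, limma adjusted p = 0.0268) and 1.39 in WT (SE 0.17, limma adjusted p = 0.0153). Its log2 signal was 8.39 and 8.29 in iron-deficient fit, 7.03 and 6.87 in iron-sufficient fit, 7.92 and 7.90 in iron-deficient WT and 6.46 and 6.57 in iron-sufficient WT. PYE thus had the group order of BHLH101 in a narrower range, with fit above WT by 0.43 at either iron supply, a difference that was not called. Over the 7 bHLH genes recognised by symbol or synonym in the RefSeq gene table and measured here, BHLH101 was the only one called in any of the 7 comparisons, and the iron responses of the other 6 ran from 0.03 to 0.39 in fit and from -0.12 to 0.64 in WT. PYE carries no bHLH number in that table and is not among the 7.

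AT1G47400 (IMA1), for an IRON MAN peptide, moved most like BHLH101 among the regulators. Its log2 signal was 10.53 and 11.33 in iron-deficient fit, 6.43 and 7.14 in iron-sufficient fit, 9.42 and 9.83 in iron-deficient WT and 4.73 and 4.68 in iron-sufficient WT. The groups stood in the same order as for BHLH101 and did not overlap. IMA1 was 17.7-fold higher under iron deficiency in fit (limma adjusted p = 0.00609) and 30.3-fold higher in WT (adjusted p = 0.000938). With sufficient iron it had 2.08 (SE 0.33) in fit against WT and was not called (adjusted p = 0.381).

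The hemerythrin-domain ubiquitin ligase genes did not stand higher in fit than in WT under iron deficiency. AT1G74770 (BTSL1) was called in WT on both of its probe sets, at 2.68 and 2.44, and had 0.86 and 1.19 in fit, which were not called (unadjusted p = 0.0169 and 0.00132). With sufficient iron these had 1.59 and 1.21 in fit against WT, and under iron deficiency -0.23 and -0.04, none of them called. AT1G18910 (BTSL2) rose by 1.71 under iron deficiency in WT (SE 0.17, limma adjusted p = 0.00733) and had -0.08 in fit, which was not called. It was lower in iron-deficient fit than in iron-deficient WT (-1.55, SE 0.17, limma adjusted p = 0.0155), the comparison in which BHLH101 had 1.31.

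Genes known to need FIT for their induction did not follow BHLH101 in the mutant. Of 15 genes listed as targets of FIT paired with subgroup Ib factors, 6 were measured. Binding of these genes by such pairs was not tested here. The list was made knowing earlier work on fit, so its direction is not independent evidence. Under iron deficiency 4 of the 6 were called higher in WT and 0 by limma in fit, where 0 also had an unadjusted p under 0.05; of all probe sets, 0.356% were called higher in WT and 0.132% in fit. The median log2 fold change was -0.03 in fit and 2.34 in WT. AT3G58060 (MTP8), a vacuolar metal transporter gene, had 0.01 in fit and 4.24 in WT, where BHLH101 had 2.41 and 4.09. AT3G12900 (S8H), a scopoletin hydroxylase gene of coumarin synthesis, had 0.38 in fit and 5.06 in WT. BGLU42, for a beta-glucosidase, had 0.08 in fit and 2.67 in WT, and AT3G13610 (F6'H1), at the start of coumarin synthesis, -0.21 and 2.00. Between iron-deficient fit and iron-deficient WT, 5 of the 6 were called lower in fit, where 0.198% of all probe sets were called lower. The exception was AT1G28680 (COSY), at -0.93 (limma adjusted p = 0.286). COSY also had the smallest iron response of the 6 in WT, 0.72, which was not called (limma adjusted p = 0.446).

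The contrast also shows in iron-sufficient fit against iron-sufficient WT. There the 6 targets had log2 fold changes from -0.56 for ZIP9, a metal transporter gene, to 0.10 for AT3G13610, with a median of -0.11, no call by limma and 0 with an unadjusted p under 0.05. BHLH101 stood at 2.99 on the same arrays. In iron-deficient fit against iron-sufficient WT the targets ranged from -0.63 to 0.18, and BHLH101 was at 5.40. Differences between genes were not tested. Of the 17 listed genes of iron translocation and storage, 0 had a probe set naming that gene alone, so none could be described here.

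**Figure D3:**
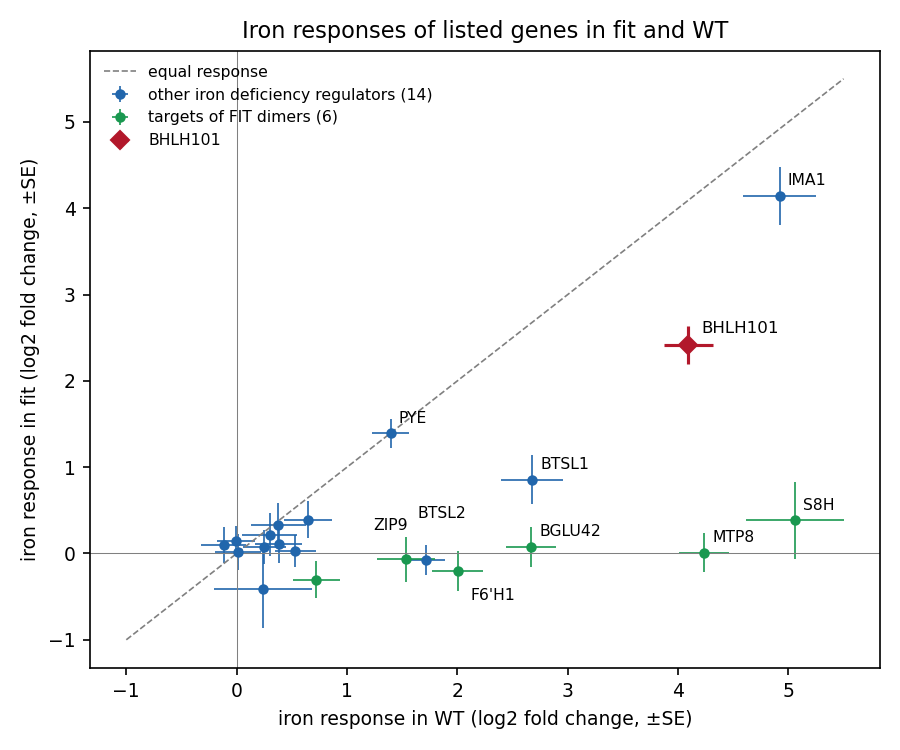
Log2 fold change under iron deficiency in fit (vertical axis) against that in WT (horizontal axis), with SEs, for BHLH101, 14 other regulators and 6 targets of FIT; the dashed line marks equal responses. BHLH101, at 2.41 in fit and 4.09 in WT, lies between IMA1 and PYE near the line and the targets near 0 in fit.

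The genes whose pattern was most like that of BHLH101 were sought among 960 probe sets that name 1 gene and vary over the arrays (SD of log2 signal of at least 0.5). Likeness was Pearson's r over the 8 arrays, which share their processing, and is a description without a test. The median r over the 960 was -0.11, and 8 of them (0.833%) had an r of 0.9 or more. The highest were AT5G05250 (0.96), AT1G47400 (IMA1, 0.96), AT3G27050 (0.95), both probe sets of AT1G74770 (BTSL1, 0.93 and 0.92), PYE (0.93), AT4G31330 (0.91) and AT5G54940 (0.90), followed by AT5G47980 (0.89) and NET3A (0.88). These 10 probe sets stand for 9 genes, 3 of them from the regulator list.

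AT5G05250 had log2 signals of 11.18 and 10.64 in iron-deficient fit, 8.49 and 8.80 in iron-sufficient fit, 9.92 and 10.31 in iron-deficient WT and 7.67 and 7.28 in iron-sufficient WT. It rose under iron deficiency by 4.80-fold in fit (limma adjusted p = 0.0233) and by 6.23-fold in WT (adjusted p = 0.00682). NET3A, for an actin-binding protein of the NETWORKED family, had another order: iron-sufficient fit, at 7.37 and 7.16, was above iron-deficient WT, at 7.13 and 6.59. It had 2.08 (SE 0.44) in fit against WT with sufficient iron, which was not called, and among the 7 comparisons it was called in 1, between iron-deficient fit and iron-sufficient WT (3.63, limma adjusted p = 0.0184). When likeness was measured instead as the distance between centred group means, which also asks for a similar size, the 5 nearest probe sets were those of IMA1, AT5G05250, NET3A and, with both probe sets, BTSL1. All 5 were among the 10 above. The 10 depend on the measure: 6 of them stayed among the top 10 over the 6 arrays of lower control ratio, 5 by Spearman's rho and 5 when an SD of at least 1 was asked for, which left 57 probe sets.

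**Figure D4:**
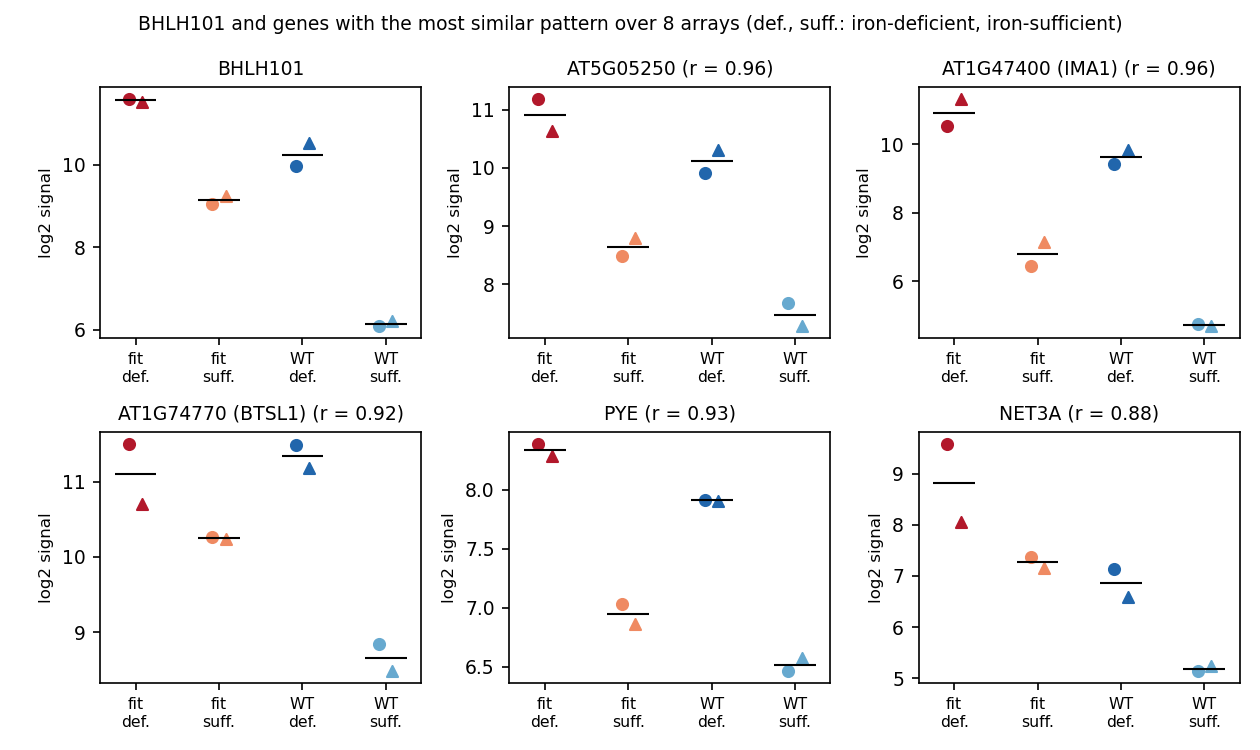
Log2 signal (vertical axes, each with its own range) of BHLH101 and 5 of the genes with the highest r to it, on each array by genotype and iron supply; circles are replicate 1, triangles replicate 2 and lines means of 2 arrays. IMA1 and AT5G05250 keep the order of BHLH101, while BTSL1 overlaps between iron-deficient fit and iron-deficient WT.

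The group order of BHLH101, with no overlap between neighbours, was found in 71 of the 22746 probe sets (0.312%). Of these 46 name 1 gene, and 12 of the 46, BHLH101 included, vary with an SD of at least 0.5. Of the 10 most similar probe sets, 7 had it. Those 10 were picked by their likeness to BHLH101 on these same arrays, which favours the same order. Their count therefore cannot be judged against the share of all probe sets. The opposite pattern was closest in EXPA15 (r = -0.96) and EXPB3 (-0.95), expansins that loosen cell walls, AT2G01610 (-0.95), AT5G01740 (-0.94) and SAPX (-0.93), a stromal ascorbate peroxidase. Of these 5 only SAPX was called lower under iron deficiency in both genotypes, at -1.51 in fit and -1.27 in WT. EXPA15 had -1.12 in fit against WT with sufficient iron, which was not called.

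The 3 nearest measured genes on each side of BHLH101 in the order of the chromosome were AT5G04080, GYRB3 and AT5G04120 on one side and AT5G04160, AT5G04170 and AT5G04210 on the other, between 1 and 6 genes away. Their log2 fold changes in fit against WT with sufficient iron ran from 0.02 to 0.38, and their iron responses from -0.94 to 0.88 in fit and from -0.32 to 0.84 in WT. AT5G04080 had the group order of BHLH101 without overlap, in a narrower range: its log2 signal was 8.12 and 8.74 in iron-deficient fit, 7.52 and 7.58 in iron-sufficient fit, 7.95 and 8.08 in iron-deficient WT and 7.42 and 6.93 in iron-sufficient WT. Its iron responses were 0.88 in fit and 0.84 in WT (unadjusted p = 0.00982 and 0.0119). None of the 6 was called by limma in any of the 7 comparisons. At an unadjusted p under 0.05 there were 0 of 6 in fit against WT with sufficient iron, as against 1.84% of all probe sets. There were 4 of 6 in the iron response of fit and 1 of 6 in that of WT. For the iron responses the share of all probe sets at that level is not given here, so these 2 counts cannot be judged against it.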

How the data were processed

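The deposited intensity values are RMA signals per probe set on the linear scale, per the submitters' processing notes and the values themselves; no source used here gives the RMA version or a genome build, so no coordinates are printed. RMA compresses differences between dim probe sets. Detection calls were not analysed here. All tests used log2 of the deposited intensity, without the 64 control probe sets among the 22810. Group means were fitted over all 8 arrays with lmFit and eBayes of limma 3.58.1 under R 4.3.3 (4 residual and 3.82 prior degrees of freedom), for 7 comparisons. p-values are 2-sided, adjusted by Benjamini-Hochberg over 22746 probe sets and called under 0.05. The fit was tested on simulated data. With 2 arrays per group, precision is limited by their number, and p-values measure the spread between samples that the labels call biological replicates.

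Gene names come from the platform table and RefSeq's TAIR10.1 gene table (13513 probe sets name 1 gene, 503 several, 8730 are unnamed here); of several probe sets for a listed gene the brightest was used. Common names in brackets come from the gene lists. Besides BHLH101, genes reported are the 10 highest and 5 lowest in r, the 5 nearest, the listed genes measured and 3 neighbours on each side. The listed regulator EIN3 and the bHLH gene AT1G22490 enter counts, medians and ranges, without values of their own in the text. BHLH101, the lists and the tests were chosen with earlier results of these data known. Alternatives were a replicate block, leaving out each array, both arrays of high control ratio or the groups not compared, the control ratio as a covariate, quantile normalization, median centring, adding 32 before log2, fewer probe sets (without the dimmest 25%, or naming 1 gene), another variance model and array weights.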

Additional observations from a re-analysis of the deposited data

Results flagged for a closer look

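Of 45 named probe sets, 1 had a called difference between the iron responses of fit and WT: AT3G58060 (MTP8), at -4.23 on the log2 scale (limma adjusted p = 0.00536). Of all probe sets, 0.0747% were called. The 45 include genes from lists made with earlier results known and genes picked by likeness on these same arrays. BHLH101 itself, at -1.68, was not called (adjusted p = 0.243). Groups of 2 arrays are too small for a check of single outlying arrays.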

How the results depend on the processing

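BHLH101 kept its direction in each comparison in all 19 alternative fits on the log2 scale (18 for the difference of responses). It was called in 19 of 19 for the iron response of WT (3.59 to 4.37) and for iron-deficient fit against iron-sufficient WT (4.88 to 5.53), in 16 for the iron response of fit, in 14 for fit against WT with iron, in 2 for fit against WT under iron deficiency, in 1 for the difference of responses and in 0 for iron-deficient WT against iron-sufficient fit (adjusted p = 0.0550 to 1.00).

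Leaving out 1 array at a time gave 2.31 to 2.51 for the iron response of fit, called in 6 of 8, and 2.89 to 3.09 for fit against WT with iron, called in 4 of 8. The iron response of fit, 2.41, was not called with only the arrays compared, nor was fit against WT with iron after adding 32 to the signal (2.53). The cause of these lost calls was not tested. The fits that left out arrays had fewer of them, while the fit with 32 added used all 8. The covariate gave calls for fit against WT under iron deficiency (1.22) and for the difference of responses (-1.80). On linear signals the difference of responses reversed, to 1275 signal units.

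Deviations from the group mean in replicates of equal number correlated between groups at r = 0.13 to 0.66 over probe sets, but the labels state no pairing. The highest r was between iron-deficient WT and iron-deficient fit, whose replicate 2 arrays had the raised 3′ to 5′ ratio. In the other pairs of groups r was 0.13 to 0.41. With a replicate block the fold changes stayed as they were and fit against WT under iron deficiency (1.31) was called (adjusted p = 0.0334); counts of called probe sets went to 201 for the iron response of WT (98 without it), 145 for that of fit (46), 4 for fit against WT with iron (2), 134 under iron deficiency (62), 40 for the difference of responses (17), 112 for iron-deficient WT against iron-sufficient fit (58) and 274 for iron-deficient fit against iron-sufficient WT (91). Over all other alternatives these counts ranged, in the same order, over 26 to 431, 1 to 153, 0 to 22, 10 to 198, 3 to 82, 14 to 221 and 24 to 771, the last without replicate 1 of iron-deficient fit.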
